A study of Caenorhabditis elegans with 10 samples.

Results

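The genes described here are 9 nutrient signaling genes of Caenorhabditis elegans, chosen by symbol: let-363, daf-15, rict-1, raga-1, ragc-1, rheb-1, rsks-1, hlh-30 and aak-2. All 9 were found once in each deposited table, among 19177 genes at 8 h and 21915 at 24 h. GMC101 expresses human Aβ1-42 in body wall muscle from the unc-54 promoter and carries an intestinal mtl-2 GFP marker. Its reference, CL2122, carries the empty unc-54 vector and the same GFP marker. Worms of both strains were shifted to a higher temperature, which induces Aβ in GMC101, and RNA of whole worms was sequenced after 8 h or 24 h. According to the labels there were 10 samples, with 2 of each strain at 8 h and 3 of each at 24 h, but the deposited tables hold 1 value per gene, strain and time. No spread between replicates could therefore be computed, and each comparison below sets 1 value against 1.

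The target of rapamycin (TOR) kinase couples growth to food. It works in a first complex with Raptor, which drives protein synthesis and restrains autophagy, and in a second complex with Rictor, which acts on fat storage and growth in the worm. Amino acids reach the first complex through the Rag GTPases on the lysosome, and Rheb activates the kinase there. When nutrients run low the AMP-activated kinase and the transcription factor HLH-30, the worm TFEB, take over and turn on energy-saving, lysosomal and autophagy programs.

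None of the 9 genes differed 2-fold between GMC101 and CL2122 at either time. Over all genes averaging 50 or more normalized counts, which are called the genes tested, 3.14% did so at 8 h (0.768% higher and 2.37% lower in GMC101) and 15.5% at 24 h (6.25% higher and 9.29% lower). Of these calls at 24 h, 767 were higher and 1140 lower in GMC101, against 599 higher and 1565 lower with total-count scaling. A 1.5-fold difference was not reached by any of the 9 either, against 9.57% of the genes tested at 8 h (3.67% higher and 5.89% lower) and 31.2% at 24 h (12.9% higher and 18.4% lower). With the libraries scaled by total reads instead, 2 of the 9 passed 1.5-fold at 24 h, namely let-363 (log2 fold change -0.74) and daf-15 (-0.68), both lower in GMC101. The share of all genes past 1.5-fold was not computed on that scale. There 63.7% of the genes tested lay below 0 at 24 h, against 48.0% with the deposited scaling. At 24 h the kinase gene let-363 and its Raptor partner daf-15 were lower in GMC101, by 1.46 and 1.41 times, and the GTPase genes raga-1, rheb-1 and ragc-1 were higher, by 1.36, 1.28 and 1.23 times. Levels are given as CPM, the reads of a gene scaled by the total of its column, and lay between 45.7 and 291 CPM. Fold changes are ratios of the deposited counts, which carry trimmed mean of M values (TMM) scaling, so they are not the ratios of the CPM values printed beside them. At 24 h TMM scaling puts each log2 fold change of GMC101 over CL2122 0.19 above that of the CPM, and at 8 h 0.034 below it.

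**Figure D1:**
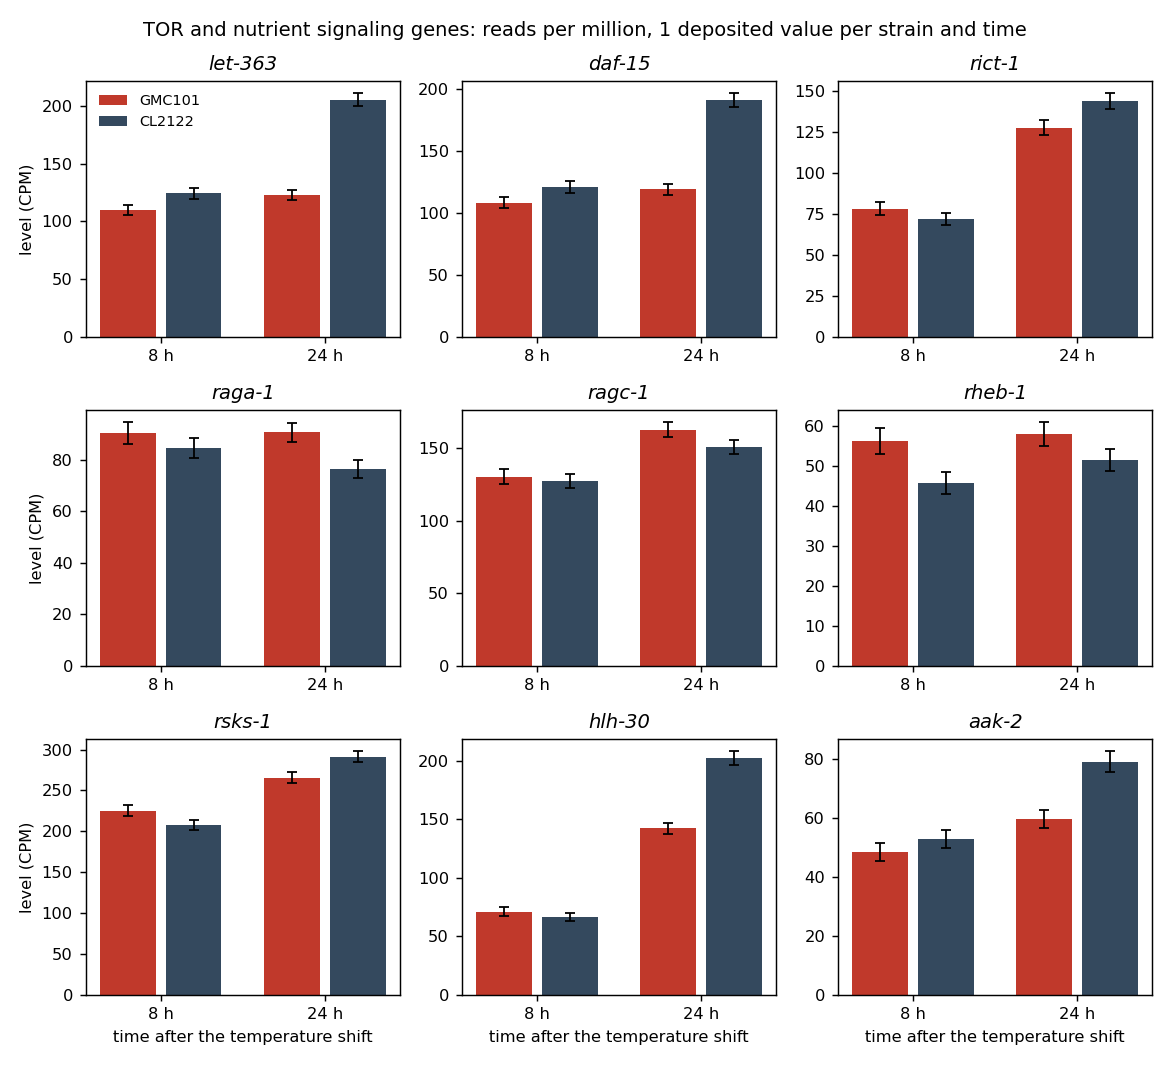
Level of each gene in CPM (vertical axes from 0) at 8 h and 24 h, with GMC101 in red and CL2122 in dark blue, 1 deposited value per bar and 95% exact Clopper-Pearson intervals for counting error. At 24 h let-363 stood at 123 CPM in GMC101 and 206 CPM in CL2122, and hlh-30 at 142.3 CPM in GMC101 and 203 CPM in CL2122.

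The columns held 20533034 reads on genes for GMC101 and 22520669 for CL2122 at 8 h, and 25283085 for GMC101 and 24583097 for CL2122 at 24 h. Intervals given below cover counting error only. The labels give the stage as L1, while the study's methods describe young adults. Yolk genes, which adult hermaphrodites express, summed to 44250 CPM in GMC101 and 53941 in CL2122 at 8 h, and to 39410 CPM in GMC101 and 18044 in CL2122 at 24 h. Marker lists of several tissues differed between the strains. At 24 h all 25 sperm genes tested (273.7 summed CPM in GMC101, 54.2 in CL2122, over the 28 listed in the table) and 8 of 12 body wall muscle genes (4883 CPM in GMC101, 2588 in CL2122) were over 2-fold higher in GMC101, and all 15 oocyte genes lay above 0 (13397 CPM in GMC101, 9572 in CL2122). Of 6 yolk genes 5 were over 2-fold higher in GMC101 at 24 h. Muscle genes ran the other way at 8 h (8141 CPM in GMC101, 10216 in CL2122, and 11 of 12 below 0). Of the muscle sums, unc-54 alone held 2928 CPM in GMC101 and 4227 in CL2122 at 8 h. At 24 h it held 2047 CPM in GMC101 and 1036 in CL2122. Of the cuticle genes 6 of 10 were over 2-fold lower in GMC101 at 8 h. All 10 then summed to 2281 CPM in GMC101 and 2289 in CL2122, mostly col-19 (2180 CPM in GMC101, 2086 in CL2122). All 27 sperm genes tested at 8 h lay above 0 (3324 CPM in GMC101, 2646 in CL2122). As background for these signs, 51.5% of all genes tested lay above 0 at 8 h and 52.0% at 24 h. Of the intestine genes 4 of 10 were over 2-fold higher in GMC101 at 24 h, though their summed level was lower (3986 CPM in GMC101, 4530 in CL2122). The 10 cuticle genes summed to 679.5 CPM in GMC101 and 170.9 in CL2122 at 24 h. Only 5 of them were tested then, of which 2 were over 2-fold higher in GMC101 and 3 lay below 0 (median log2 fold change -0.16). The part of these tissue differences in the results below was not tested, and in RNA of whole worms more cells of a type and more RNA per cell cannot be told apart.

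The TOR kinase gene let-363 (WBGene00002583, chromosome I from 5245743 to 5263413) was counted in 2254 reads of GMC101 and 2801 reads of CL2122 at 8 h, or 109.8 CPM in GMC101 and 124 CPM in CL2122. At 24 h it took 3115 reads of GMC101 and 5054 reads of CL2122, or 123 CPM in GMC101 and 206 CPM in CL2122. The log2 fold change of GMC101 over CL2122 was -0.21 at 8 h (counting interval -0.29 to -0.13) and -0.55 at 24 h (-0.61 to -0.48). Thus GMC101 was lower at both times, and the value of CL2122 at 24 h stood apart as the highest of the 4.

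The Raptor gene daf-15 (WBGene00000911, chromosome IV from 9386208 to 9394930), whose product brings substrates to the first TOR complex, had nearly the same values. It had 108 CPM in GMC101 and 121 CPM in CL2122 at 8 h, and 119 CPM in GMC101 and 191 CPM in CL2122 at 24 h. Its log2 fold change was -0.19 at 8 h (counting interval -0.28 to -0.11) and -0.49 at 24 h (-0.56 to -0.43). Per kilobase of gene length, daf-15 was 1.45 times the level of let-363 in GMC101 and 1.43 times in CL2122 at 8 h, and 1.42 times in GMC101 and 1.36 times in CL2122 at 24 h. The log2 change of that ratio between the strains was 0.020 at 8 h (-0.094 to 0.13) and 0.054 at 24 h (-0.038 to 0.15), so a difference in the balance of these transcripts was not detectable at this depth.

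The Rictor gene rict-1 (WBGene00009245, chromosome II from 13098249 to 13116806), which defines the second TOR complex, did not share that difference. It had 78.3 CPM in GMC101 and 72.0 CPM in CL2122 at 8 h, and 128 CPM in GMC101 and 144 CPM in CL2122 at 24 h. The log2 fold change was 0.088 at 8 h and 0.019 at 24 h, with counting intervals of -0.012 to 0.19 and -0.051 to 0.088 that include 0. At 24 h its sign turned to -0.17 with total-count scaling and to -0.014 with upper-quartile scaling. The ratio of rict-1 to daf-15 per kilobase does not depend on the scaling. It was 1.25 in GMC101 and 0.876 in CL2122 at 24 h, 1.43 times higher in GMC101 (log2 0.51, counting interval 0.42 to 0.61), and 0.843 in GMC101 and 0.693 in CL2122 at 8 h (log2 0.28, 0.15 to 0.41).

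Among the upstream GTPases, raga-1 (WBGene00006414, chromosome II from 11301359 to 11302783), the worm RagA, had 90.4 CPM in GMC101 and 84.6 CPM in CL2122 at 8 h. At 24 h it had 90.7 CPM in GMC101 and 76.3 CPM in CL2122. Its log2 fold change was 0.062 at 8 h (counting interval -0.031 to 0.15) and 0.44 at 24 h (0.35 to 0.53), the highest of the 9 genes at that time. The level in GMC101 was thus alike at both times, and CL2122 at 24 h was the lowest of the 4 values.

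The RagC gene ragc-1 (WBGene00012497, chromosome IV from 11603613 to 11604927), the dimer partner of raga-1, had 130 CPM in GMC101 and 128 CPM in CL2122 at 8 h, and 163 CPM in GMC101 and 151 CPM in CL2122 at 24 h. Its log2 fold change was -0.0023 at 8 h (counting interval -0.079 to 0.074), a sign that turned with total-count scaling (0.031) and upper-quartile scaling (0.0031), and 0.30 at 24 h (0.24 to 0.36). The Rheb gene rheb-1 (WBGene00010038, chromosome III from 9454163 to 9456030) had 56.2 CPM in GMC101 and 45.7 CPM in CL2122 at 8 h, and 57.9 CPM in GMC101 and 51.5 CPM in CL2122 at 24 h. With log2 fold changes of 0.26 at 8 h (0.14 to 0.38) and 0.36 at 24 h (0.25 to 0.47), rheb-1 was the GTPase gene that was higher in GMC101 beyond counting error at both times.

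Since every gene of a column shares its scaling, the contrast between the GTPase genes and the pair of let-363 and daf-15 can be given as a ratio within each column. It does not extend to every subunit gene of the complexes, since at 24 h rict-1 stood near 0 and mlst-8, the gene of the LST8 subunit, at 0.43. Summed reads of raga-1, ragc-1 and rheb-1 over those of let-363 and daf-15 were 1.27 in GMC101 and 1.05 in CL2122 at 8 h. At 24 h that ratio was 1.29 in GMC101 and 0.703 in CL2122, 1.83 times higher in GMC101 (log2 0.87, counting interval 0.81 to 0.94). The ratio in GMC101 was thus alike at both times, while that in CL2122 was lower at 24 h than at 8 h. At 24 h the GTPase genes were the highest of the 9 genes, and let-363 and daf-15 the lowest. The ratio therefore restates their fold changes and is no separate result. Fold changes of that size were common at 24 h. In either direction, 33.5% of the genes tested had a larger one than let-363 and 56.9% a larger one than ragc-1. The levels at 8 h and 24 h come from tables normalized separately, and a supplementary sheet names the 8 h data a second batch. Time cannot be told apart from that batch.

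**Figure D2:**
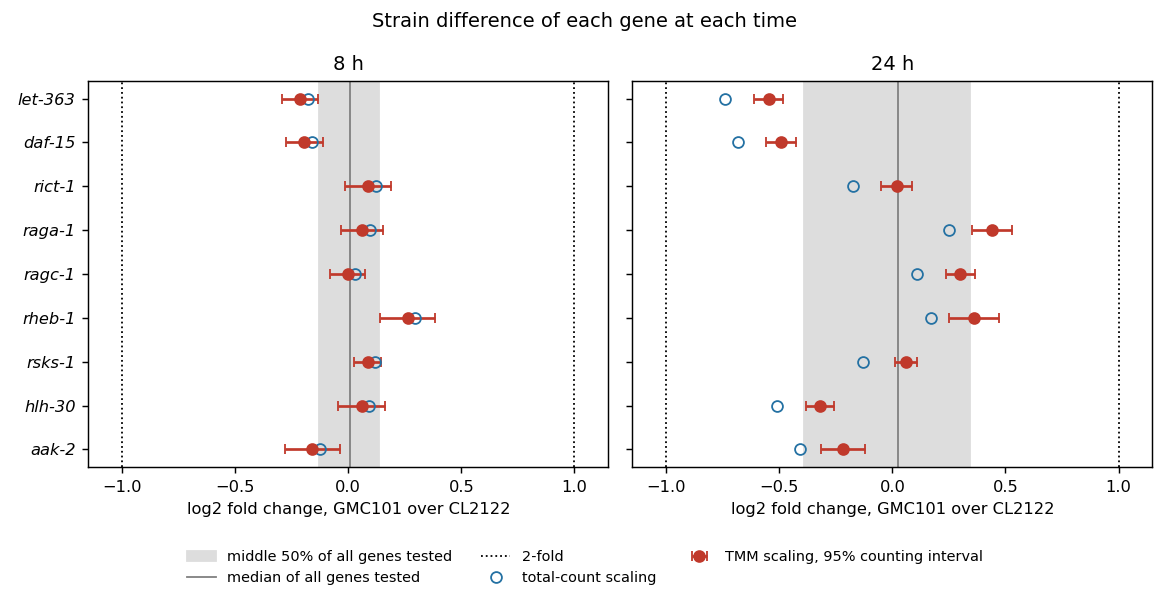
Log2 fold change of GMC101 over CL2122 (horizontal axes) for each gene at 8 h and 24 h; filled points use the deposited TMM scaling with 95% counting intervals, open points total-count scaling, the grey band holds the middle 50% of all genes tested, and dotted lines mark 2-fold. All 9 genes lie inside the dotted lines at both times, and at 24 h total-count scaling moves the values by about -0.19.

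Gene length moved with this contrast. The GTPase genes are listed at 1095 to 1273 bases, daf-15 at 5827 and let-363 at 8549. Over all genes tested at 24 h, the median log2 fold change was 0.045 in the 3130 genes of 1000 to 1500 bases and -0.28 in the 344 genes of at least 5000 bases, against 0.0084 and -0.037 at 8 h. Relative to the 200 tested genes nearest in length, a reference added after the data were seen, the 24 h log2 differences were 0.41 for raga-1, 0.35 for rheb-1 and 0.25 for ragc-1. On the same scale they were -0.30 for daf-15 and -0.23 for let-363, and rict-1, listed at 5009 bases, stood at 0.19. The signs of the 9 genes were kept at both times, and the part of gene length in the contrast was not tested further.

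**Figure D3:**
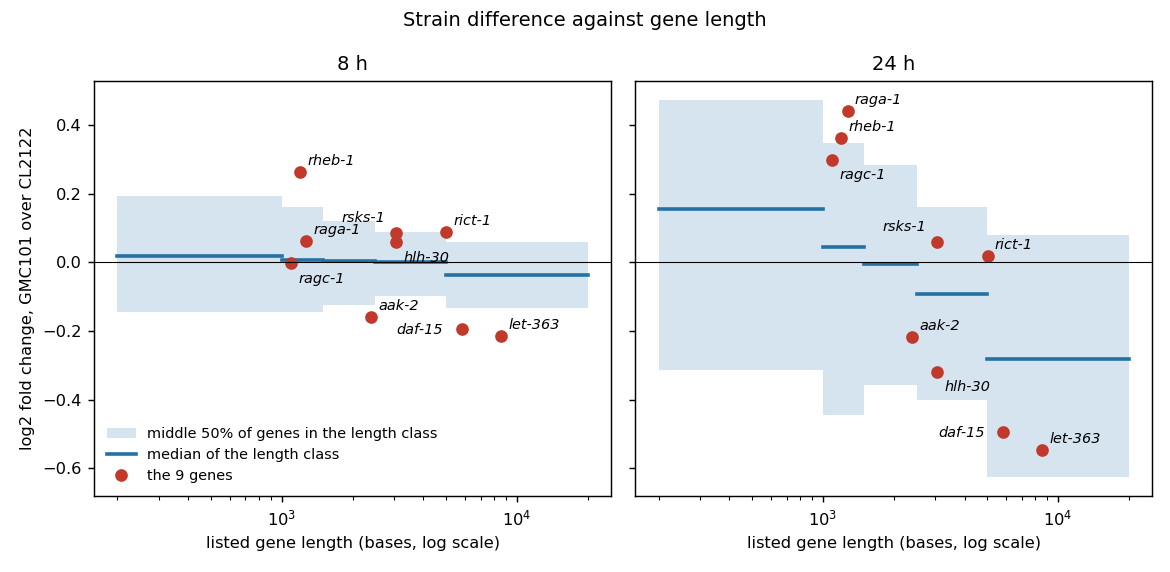
Log2 fold change of GMC101 over CL2122 (vertical axis) against listed gene length (log axis) at 8 h and 24 h; red points are the 9 genes, blue lines the medians of genes tested in 5 length classes and pale bands their middle 50%. At 24 h the class medians run lower with length, with -0.28 for genes of at least 5000 bases, and let-363 (-0.55) and daf-15 (-0.49) lie below that median.

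Downstream of the first complex, rsks-1 (WBGene00012929, chromosome III from 11245120 to 11252281) encodes the S6 kinase, which promotes translation. It had the most reads of the 9 genes, with 225 CPM in GMC101 and 207 CPM in CL2122 at 8 h, and 266 CPM in GMC101 and 291 CPM in CL2122 at 24 h. The log2 fold change was 0.085 at 8 h (counting interval 0.026 to 0.14) and 0.060 at 24 h (0.012 to 0.11), and the sign at 24 h turned to -0.13 with total-count scaling. GMC101 was thus 1.06 times CL2122 at 8 h and 1.04 times at 24 h.

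The gene hlh-30 (WBGene00020930, chromosome IV from 4014799 to 4034784) had 71.3 CPM in GMC101 and 66.8 CPM in CL2122 at 8 h, and 142.3 CPM in GMC101 and 203 CPM in CL2122 at 24 h. The log2 fold change was 0.059 at 8 h (counting interval -0.046 to 0.16, which includes 0) and -0.32 at 24 h (-0.38 to -0.26). Its range over the 4 columns was the widest of the 9 genes, 1.60 on the log2 scale. The 24 h level was 2.0 times that at 8 h in GMC101 and 3.03 times in CL2122, across tables normalized separately. For the other 8 genes this ratio lay between 1.0 (raga-1) and 1.63 (rict-1) in GMC101 and between 0.902 (raga-1) and 2.0 (rict-1) in CL2122. Over the 10631 genes tested at both times, the median log2 ratio of CPM was 0.13 in GMC101 and 0.25 in CL2122. For hlh-30 it was 1.0 in GMC101 and 1.60 in CL2122. Among 10087 genes with at least 50 reads in every column, the profiles nearest to hlh-30 (smallest Euclidean distance of centered log2 CPM over the 4 columns) were those of F48F7.5, Y43F8C.3 and sox-2, at distances of 0.038, 0.072 and 0.079. For F48F7.5 the values were 3.02 CPM in GMC101 and 2.84 CPM in CL2122 at 8 h, and 5.85 CPM in GMC101 and 8.54 CPM in CL2122 at 24 h. Counting error was not carried into these distances, so neither the choice nor the order of the nearest genes is settled.

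The gene aak-2 (WBGene00020142, chromosome X from 16796087 to 16803357) encodes a catalytic subunit of the AMP-activated kinase, which senses low energy and opposes TOR. It had 48.4 CPM in GMC101 and 52.8 CPM in CL2122 at 8 h, and 59.5 CPM in GMC101 and 78.96 CPM in CL2122 at 24 h. GMC101 was lower at both times, with log2 fold changes of -0.16 at 8 h (counting interval -0.28 to -0.036) and -0.22 at 24 h (-0.32 to -0.12). The other catalytic subunit gene, aak-1, had 38.5 CPM in GMC101 and 38.9 CPM in CL2122 at 8 h, and 56.4 CPM in GMC101 and 60.3 CPM in CL2122 at 24 h. Per kilobase, aak-2 was 1.19 times aak-1 in GMC101 and 1.28 times in CL2122 at 8 h. At 24 h the ratio was 0.997 in GMC101 and 1.24 in CL2122, a log2 difference of -0.31 (-0.46 to -0.17).

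The difference of the strain effect between the times, log2 fold change at 24 h minus that at 8 h, was -0.38 for hlh-30 (counting interval -0.50 to -0.26), -0.33 for let-363 (-0.44 to -0.23) and -0.30 for daf-15 (-0.40 to -0.19). It was 0.38 for raga-1 (0.25 to 0.51) and 0.30 for ragc-1 (0.20 to 0.40). For rict-1, rsks-1, rheb-1 and aak-2 the interval includes 0. Such shifts were common, since 44.5% of the 10631 genes tested at both times had a larger one than raga-1. Total-count scaling lowered all 9 differences, to 0.15 for raga-1 and 0.077 for ragc-1, and to -0.60 for hlh-30, -0.56 for let-363 and -0.52 for daf-15. On that scale rict-1 stood at -0.29, aak-2 at -0.28 and rsks-1 at -0.25, and the sign of rheb-1 turned, with 0.099 as reported and -0.13 with total-count scaling.

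Per kilobase of gene length (RPKM), ragc-1 was the most abundant of the 9 transcripts in all 4 columns, with 119 RPKM in GMC101 and 117 in CL2122 at 8 h, and 149 in GMC101 and 138 in CL2122 at 24 h. The gene rsks-1 came next in each column, with 73.8 RPKM in GMC101 and 68.0 in CL2122 at 8 h, and 87.1 in GMC101 and 95.4 in CL2122 at 24 h. At 8 h its counting intervals overlapped those of raga-1, which followed at 71.0 RPKM in GMC101 and 66.5 in CL2122. The lowest was let-363, with 12.8 RPKM in GMC101 at 8 h and 14.4 in GMC101 and 24.0 in CL2122 at 24 h. In CL2122 at 8 h it had 14.5 RPKM and its interval overlapped that of rict-1, at 14.4. The main change of order was that of hlh-30, which ranked 5 in GMC101 and 6 in CL2122 at 8 h (23.3 RPKM in GMC101, 21.8 RPKM in CL2122), and 5 in GMC101 (46.5 RPKM) and 3 in CL2122 (66.1 RPKM) at 24 h.

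In the annotation of WBcel235, the exons of daf-15 share 107 bases with col-121 on the other strand, those of rict-1 37 bases with col-86, and those of aak-2 78 bases with mec-4 on the other strand, at most 3.21% of a gene's exon bases. The other 6 genes share no exon bases with another gene. How the authors counted reads of overlapping genes is not given in the sources used here.

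The wider pathway was described with 4 further lists of 59 genes, of which 58 were found and 54 at 8 h and 57 at 24 h passed the filter. None of those tested was past 2-fold at 8 h, and 1, lower in GMC101, was at 24 h, where the background was 9.29% of genes in that direction. The median log2 fold change was 0.016 at 8 h and 0.027 at 24 h, beside 0.0058 and 0.026 over all genes tested. As background for the counts by sign below, 51.5% of all genes tested lay above 0 at 8 h, and 52.0% at 24 h or 36.3% there with total-count scaling.

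Among TOR complex subunits and amino acid sensing genes, 10 of 12 lay above 0 at 24 h and 3 of 12 with total-count scaling, and 9 of 12 did at 8 h. The largest value was that of mlst-8, the LST8 subunit shared by both complexes, with 55.5 CPM in GMC101 and 47.0 CPM in CL2122 (log2 fold change 0.43, counting interval 0.32 to 0.54). The smallest was that of flcn-1, the worm folliculin, at -0.17. The SIN1 gene sinh-1, a subunit of the second complex, stood at -0.27 at 8 h, the lowest of the list, and at 0.30 at 24 h. At 8 h the highest was the peptide transporter gene pept-1, with 169 CPM in GMC101 and 109.8 CPM in CL2122 (log2 fold change 0.59). It stood at 0.068 at 24 h, and the intestine list that also holds it had a median of 0.065 at 8 h.

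For the other AMPK genes, 9 of 16 tested lay above 0 at 24 h and 3 with total-count scaling, and 6 did at 8 h. The share of 9 in 16 is near that of all genes. The values at 24 h ran from -0.53 for the gamma subunit gene aakg-2 (21.4 CPM in GMC101, 35.3 CPM in CL2122) to 0.40 for another gamma subunit gene, aakg-1 (159 CPM in GMC101, 138 CPM in CL2122). At 8 h aakg-1 was the lowest of the list at -0.24, and crtc-1, a transcriptional coactivator regulated by AMPK, was the highest at 0.26.

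Of the kinases and translation factors downstream, 7 of 13 lay above 0 at 24 h, near the share of all genes, and 5 with total-count scaling, with a spread between -0.91 and 0.60. At 8 h 8 of 13 did. The lowest was akt-2, a kinase of the insulin pathway, with 22.1 CPM in GMC101 and 47.3 CPM in CL2122 (counting interval -1.05 to -0.76), and it was past 2-fold with total-count scaling (-1.10). The highest was ife-3, an eIF4E cap-binding protein gene, with 331 CPM in GMC101 and 249 CPM in CL2122. The kinase gene sgk-1, a target of the second complex, stood at 0.069 at 8 h and -0.13 at 24 h, its counting intervals including 0. At 8 h the list ran from -0.23 (ife-5) to 0.17 (ife-3).

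Of the HLH-30 partners, reported targets and other longevity factors, 11 of 16 lay below 0 at 24 h (14 with total-count scaling), with a median log2 fold change of -0.27, beside 48.0% of all genes tested (63.7% with total-count scaling). At 8 h, 8 of 13 tested lay above 0, beside 51.5% of all genes tested, and the median was 0.036, beside 0.0058. At that time 2 of the 13 were over 1.5-fold lower in GMC101 and 0 higher, beside 5.89% lower and 3.67% higher of all genes tested. The genes fmo-2, lipl-2 and lipl-3 were under the filter then. The gene past 2-fold was fmo-2, a flavin monooxygenase gene known to depend on HLH-30, with 434 reads of GMC101 and 4960 reads of CL2122, or 17.2 CPM in GMC101 and 202 CPM in CL2122. Its log2 fold change was -3.36 (counting interval -3.51 to -3.22), a level 10.3 times lower in GMC101. At 8 h fmo-2 took 5 reads of GMC101 and 10 reads of CL2122, below the minimum for testing. Both strains were thus higher at 24 h than at 8 h, with CL2122 at 24 h the highest of the 4 columns.

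The lysosomal lipase gene lipl-1 had 37.1 CPM in GMC101 and 75.3 CPM in CL2122 at 24 h, a log2 fold change of -0.83, and was past 2-fold with total-count scaling (-1.02). The other lipase genes did not share that value at 24 h, with 0.32 for lipl-3 (counting interval 0.17 to 0.46), 0.027 for lipl-5 (-0.067 to 0.12), whose sign turned with total-count (-0.16) and upper-quartile scaling (-0.0060), and -0.22 for lipl-2 (-0.43 to -0.012). The autophagy receptor gene sqst-1 had 143 CPM in GMC101 and 241 CPM in CL2122 at 24 h (-0.56). The gene mml-1, which encodes a Mondo factor that acts with HLH-30, had 40.9 CPM in GMC101 and 77.9 CPM in CL2122 (-0.74), and its partner mxl-2 stood at 0.16, a sign that turned to -0.033 with total-count scaling. At the upper end, daf-16 stood at 0.37 at 24 h. At 8 h the list ran from -0.75 for the lipase gene lipl-5 (179 CPM in GMC101, 294 CPM in CL2122) to 0.34 for pha-4, a FoxA factor gene, with mml-1 at -0.17 and mxl-2 at 0.089. The lipase genes lipl-2 and lipl-3 were under the filter at 8 h, with 9 reads in GMC101 and 45 in CL2122 for lipl-2 and 12 reads in GMC101 and 3 in CL2122 for lipl-3.

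**Figure D4:**
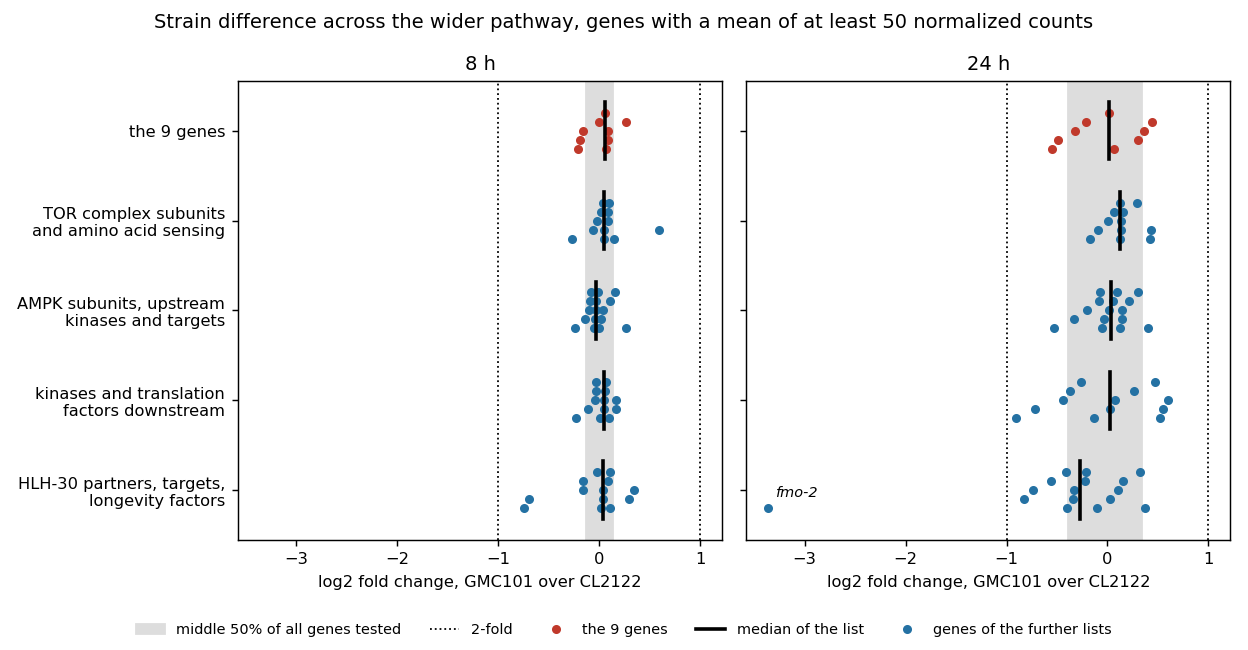
Log2 fold change of GMC101 over CL2122 (horizontal axes) at 8 h and 24 h for the 9 genes (red) and the genes of the 4 further lists (blue) that passed the filter, with the median of each list as a black bar; the grey band holds the middle 50% of all genes tested and dotted lines mark 2-fold. The only point beyond the dotted lines is fmo-2 at 24 h (-3.36), and the HLH-30 list has the lowest median at that time (-0.27).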

How the data were processed

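Per the labels and methods, RNA of whole worms was made into libraries with the NEBNext Ultra RNA kit and sequenced as paired-end reads. The submitters' processing notes name HISAT2 2.05, StringTie 1.33 and DESeq2, and the build and read counter are not given in the sources used here. The authors deposited 1 signal value per gene, strain and time, a normalized count. From the values, reads were recovered as whole multiples of 1 step per column, within 0.1, for 100% of the values. Equalizing the recovered reads in edgeR with TMM factors and an assumed dispersion of 0.04 returned the deposited values to within 1.22e-06 of each. The tables' columns of fold changes and p-values hold the authors' own comparison and were not used.

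Log2 fold changes are ratios of deposited values after adding 1 normalized count, called beyond 2-fold. Genes averaging 50 or more normalized counts over both strains counted as tested (11593 at 8 h, 12268 at 24 h). Intervals are exact Clopper-Pearson intervals of the share of reads (95%), or normal intervals on the log scale for ratios and differences of fold changes. They cover counting error only. 3 reads equal between 0.119 and 0.146 CPM. Gene lengths and positions are those listed in the tables. Of their identifiers, 19047 of 19177 and 21749 of 21915 are in the Ensembl 115 annotation of WBcel235. edgeR's quasi-likelihood test needs replicates and was not run. The genes and lists were chosen with earlier results of these data known. Named genes are all 9, genes of the lists past 2-fold, the extremes of each list and direct partners, and for the member of widest range over the columns the 3 genes of nearest profile. The genes lipl-1, lipl-2, lipl-3, sqst-1 and the 24 h values of pept-1 and lipl-5 were added after their values were seen. Alternatives were 3 other scalings, a fold minimum of 1.5, a pseudocount of 5, other filters and edgeR's exact test with assumed coefficients of variation, checked on simulated data. The work ran in R 4.3.3 with edgeR 4.0.16 and DESeq2 1.42.0 (size factors only), and in Python 3.11.15 with pandas 2.3.3, scipy 1.17.1, matplotlib 3.10.9 and numpy 2.4.6.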

Additional observations from a re-analysis of the deposited data

Results flagged for a closer look

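The strain difference of hlh-30 lay on opposite sides of 0 at 8 h and 24 h, with 0.059 at 8 h and -0.32 at 24 h on the log2 scale, under each of the 4 scalings used. The difference between the times was -0.38, beyond counting error (-0.50 to -0.26). With 1 value per strain and time, this difference was not tested against the spread between samples, and the 8 h value alone does not differ from 0 beyond counting error. Of the genes tested at both times, 44.7% had a larger difference.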

How the results depend on the processing

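None of the 9 genes passed 2-fold, or 1.5-fold under TMM scaling. edgeR's exact test, with an assumed coefficient of variation of 0.1, 0.2 or 0.4, compares the libraries and not the conditions. Its calls also required 2-fold, so none of the 9 could pass it, and it adds no separate result on them. Over all genes tested, 1907 passed 2-fold at 24 h and 364 at 8 h. These counts were 3831 and 1109 at 1.5-fold, 1257 and 109 with the exact test at 0.2, 44 and 13 at 0.4, 6659 and 3025 with no filter, and 551 and 72 among genes averaging 500 or more normalized counts. Total-count scaling moved the median of all genes at 24 h by -0.19, and that of the 9 genes to -0.17, beside 0.019 as reported. Relative to genes of like length, added after seeing the data, the median of the 9 was 0.13. In the further lists, 3 of 57 genes tested passed 2-fold with total-count scaling at 24 h and 6 passed 1.5-fold, beside 1 as reported. At 8 h 3 of 54 passed 1.5-fold, beside 0. Of all genes tested, 31.2% passed 1.5-fold at 24 h and 9.57% at 8 h. With total-count scaling 2164 of 12268 passed 2-fold at 24 h. Signs changed for rict-1 and rsks-1 at 24 h and ragc-1 at 8 h with total-count scaling, and for rict-1 at 24 h and ragc-1 at 8 h with upper-quartile scaling. At 24 h total-count scaling left 0 of the 9 log2 fold changes within its counting interval, and the length reference left 3. With total-count scaling raga-1 stood at 0.25, rheb-1 at 0.17 and ragc-1 at 0.11, and let-363 at -0.74 and daf-15 at -0.68. No paired analysis was possible because the columns carry no replicate numbers, and no replicate could be left out. The 9 genes had 994 to 7154 reads a column, and at this depth the counting intervals of rict-1 at both times and of raga-1, ragc-1 and hlh-30 at 8 h include 0. With 1 value per strain and time, variation between samples is not covered.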
